A study of Mus musculus with 6 samples.

Results

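Hspg2, Lamb1, Sulf1, Csgalnact1 and Spock2 are 5 genes of basement membranes and of sulfated glycosaminoglycans, the long sugar chains carried by proteoglycans. They were picked by name from the 466 genes that the authors list as differing between microglia with and without Piezo1, and all 5 were found, with 1 row each. Poly(A) RNA was sequenced from microglia, the macrophages that reside in the brain. The cells came from adult male mice of the 5×FAD line, a transgenic model of Alzheimer's disease, with C57BL/6N given as the strain. The knockout group (Piezo1MGKO; FAD, 3 samples) carried Cx3cr1CreER-EYFP, a tamoxifen-inducible Cre recombinase driven from the locus of the microglial gene Cx3cr1, together with Piezo1fl/fl, floxed alleles of a mechanically gated cation channel gene, and 5×FAD. The control group (Piezo1fl/fl; FAD, 3 samples) held littermates with the same floxed alleles and 5×FAD, for which no Cre allele was named. All of these mice received 4 daily injections of 20 mg/kg tamoxifen, starting at 4.5 weeks of age, and the age at isolation was not given in the sources used here. Loss of Piezo1 and presence of the Cre allele therefore cannot be told apart. The labels name each sample a biological repetition, and the number of mice behind it was not given in the sources used here.

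Basement membranes are thin sheets of matrix around blood vessels, below epithelia and at the surface of the brain. Laminins, which are trimers of an alpha, a beta and a gamma chain, form one of their networks and type IV collagen another, and the proteoglycan perlecan binds both. Perlecan carries heparan sulfate, whose pattern of sulfate groups decides which growth factors it holds. Chondroitin sulfate is the related chain found on the proteoglycans of brain matrix.

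The 5 genes were chosen because they are listed as lower in the knockout, so every difference between the groups given below describes the values that chose them and is no test. The authors listed genes whose log2 fold change exceeded 1 in size and whose unadjusted p was under 0.05. In the authors' deposited table the log2 fold change was -3.89 for Hspg2, -3.28 for Lamb1, -2.92 for Sulf1, -5.82 for Csgalnact1 and -1.46 for Spock2. The adjusted p in the authors' deposited table, which covers 19107 genes, stood at 0.00339 for Hspg2, 0.0285 for both Lamb1 and Sulf1, 0.265 for Csgalnact1 and 1.00 for Spock2. Thus 3 of the 5 genes passed an adjusted p of 0.05 there, against 3.00% of the 466 listed genes. Spock2 was the member nearest to the authors' limits, whose unadjusted p in the authors' deposited table was 0.0169.

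The values below are normalised read counts, which are the reads of a gene divided by a size factor of its library, and the size factors ranged from 0.979 to 1.03. A value of 10 therefore stands for about as many sequenced reads. Total library depth is unknown here, since only listed genes were analysed. The reads of the 466 listed genes summed to between 49643 and 71292 in the knockout libraries and to between 113962 and 180760 in the control libraries. Piezo1 is not among the listed genes and its level was not analysed here, so it gives no check of the genotype labels. Of 10 microglia markers Cx3cr1 is listed, with 27906 to 35698 normalised reads in the knockout samples and 58569 to 79363 in the controls, and the other 9 were not analysed here. The Cre allele named for the knockout group lies at this locus, so its effect on Cx3cr1 cannot be told apart from other causes. In bulk RNA, fewer cells of a type and less RNA per cell cannot be told apart, which holds for every value below.

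Hspg2 encodes perlecan, a large heparan sulfate proteoglycan of basement membranes. It had 7.86, 5.11 and 5.06 normalised reads in knockouts 1, 2 and 3, and 15.7, 47.5 and 204.5 in controls 1, 2 and 3. The knockout samples lay close together, at 6.01 ± 1.61 (mean ± SD, n = 3), while the controls spread 13.03-fold from lowest to highest, around a mean of 89.2 ± 101 (SD, n = 3). The groups did not overlap, and the lowest control stood 2.00-fold above the highest knockout sample. The ratio of the group means was 14.8-fold, and it was 5.26-fold without control 3. Knockout 1 had 8 sequenced reads of Hspg2 and control 1 had 16, with exact Poisson 95% intervals of 3.45 to 15.8 and 9.15 to 26.0 reads that overlap. These intervals, here and below, cover counting error only.

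Lamb1 encodes a beta chain of laminin, present in laminin trimers of many basement membranes. It had 2.95, 3.06 and 9.11 normalised reads in knockouts 1, 2 and 3, and 14.7, 54.3 and 77.3 in controls 1, 2 and 3. Here too control 1 was the lowest control, and it stood 1.62-fold above knockout 3, the highest knockout sample. The means were 5.04 ± 3.52 and 48.8 ± 31.7 (SD, n = 3 each), a ratio of 9.68-fold. With 1 sample left out, this ratio ranged from 6.85-fold without control 3 to 16.2-fold without knockout 3. Knockouts 1 and 2 rest on 3 sequenced reads of Lamb1 each, with an exact Poisson 95% interval of 0.619 to 8.77 reads.

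**Figure D1:**
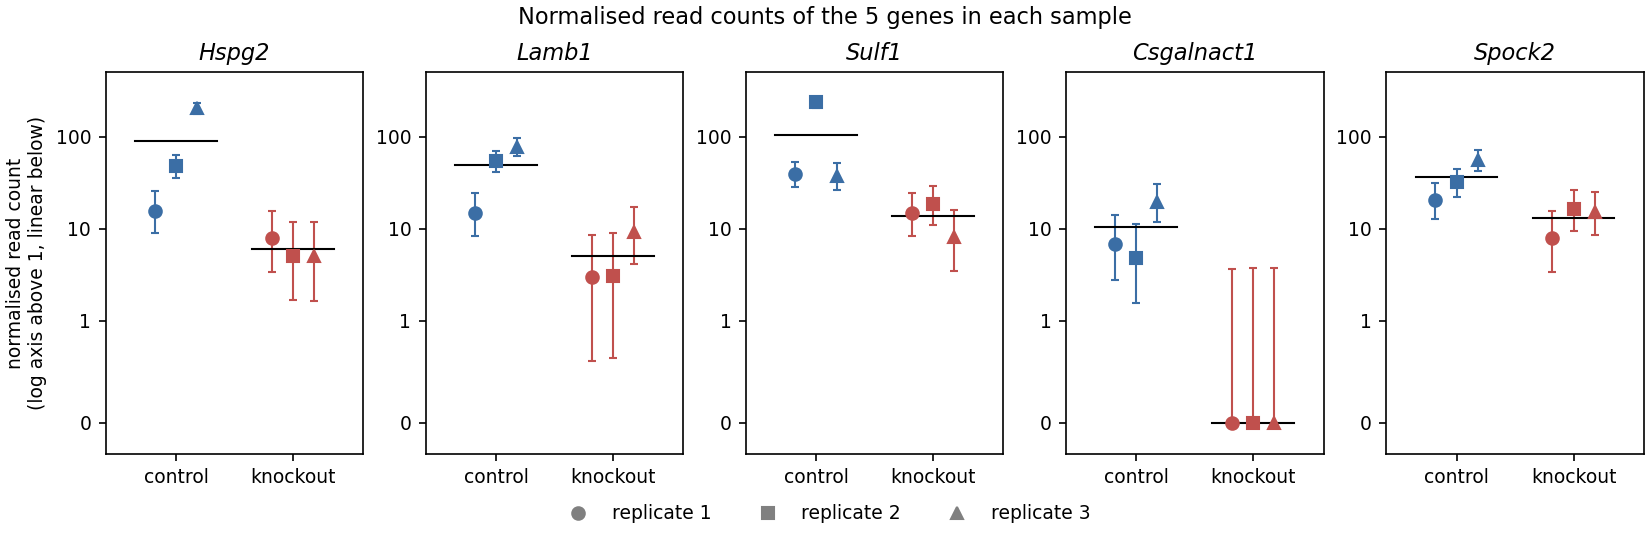
Normalised read counts of Hspg2, Lamb1, Sulf1, Csgalnact1 and Spock2 in each of the 3 control and 3 knockout samples, on a vertical axis that is logarithmic above 1 and linear below; marker shapes give the replicate number, vertical bars the exact Poisson 95% interval of the reads and horizontal lines the group means. In each panel every control lies above every knockout sample, and the highest control is control 2 for Sulf1 and control 3 for the other 4 genes.

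Sulf1 encodes an extracellular sulfatase that removes sulfate groups from heparan sulfate chains after they reach the cell surface. It had 14.7, 18.4 and 8.09 normalised reads in knockouts 1, 2 and 3, and 39.2, 234.7 and 37.2 in controls 1, 2 and 3. Controls 1 and 3 were nearly equal and control 2 stood 6.31-fold above the lowest control, with 242 sequenced reads (exact Poisson 95% interval 212 to 274). The groups did not overlap, the lowest control being 2.02-fold above the highest knockout sample. The means of 13.7 ± 5.22 and 104 ± 113 (SD, n = 3 each) differed 7.55-fold, and the ratio was 2.78-fold without control 2.

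Csgalnact1 encodes an enzyme that adds the first galactosamine sugar when a chondroitin sulfate chain is begun. It had no reads in any of the 3 knockout samples, and 6.87, 4.85 and 19.6 normalised reads in controls 1, 2 and 3. These are 7, 5 and 20 sequenced reads in the controls. Against a floor of 3 reads in each knockout library, which stands for what a count of 0 allows, the mean was at least 3.46-fold lower in the knockout, and this bound was 1.94-fold without control 3. An exon of Csgalnact1 overlaps the antisense gene 1700125H03Rik, and reads of the pair cannot be told apart, as the strand setting of the counting was not given in the sources used here.

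Spock2 encodes testican, a secreted proteoglycan of the SPARC family that is abundant in brain matrix. It had 7.86, 16.3 and 15.2 normalised reads in knockouts 1, 2 and 3, and 20.6, 32.0 and 55.8 in controls 1, 2 and 3. The groups were closest for this gene, with control 1 only 1.26-fold above knockout 2. The means of 13.1 ± 4.59 and 36.1 ± 17.9 (SD, n = 3 each) differed 2.75-fold. Knockout 2 had 16 sequenced reads, with an exact Poisson 95% interval of 9.15 to 26.0 reads that includes the 21 reads of control 1.

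On GRCm38 the genes lie on 5 chromosomes, so they share no locus. Hspg2 (ENSMUSG00000028763) spans chr4:137468769-137570630 on the plus strand, with 97 exons in its longest coding transcript. Lamb1 (ENSMUSG00000002900) spans chr12:31265234-31329644 on the plus strand (33 exons), and Sulf1 (ENSMUSG00000016918) spans chr1:12692277-12861192 on the plus strand (22 exons). Csgalnact1 (ENSMUSG00000036356) spans chr8:68356781-68735146 on the minus strand (10 exons), and Spock2 (ENSMUSG00000058297) spans chr10:60106219-60135198 on the plus strand (11 exons). The reads were counted per gene, so exons and isoforms were not resolved.

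As a description, the sequence before the gene start is shown for the 3 of the 5 genes with an entry in the RefSeq promoter table of GRCm38.p6. Each stretch is 190 bases long, reads 5′ to 3′ on the plus strand and ends 61 bases before the RefSeq start. Capitals mark GC boxes (GGGCGG, or CCGCCC on the other strand), the motif bound by Sp factors. The stretches lie at chr4:137468553-137468742 for Hspg2, chr12:31265043-31265232 for Lamb1 and chr10:60106007-60106196 for Spock2.
Hspg2: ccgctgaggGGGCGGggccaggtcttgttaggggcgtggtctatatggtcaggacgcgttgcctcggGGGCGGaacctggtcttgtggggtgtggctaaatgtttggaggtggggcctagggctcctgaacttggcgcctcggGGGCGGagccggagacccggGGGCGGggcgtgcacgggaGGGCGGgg
Lamb1: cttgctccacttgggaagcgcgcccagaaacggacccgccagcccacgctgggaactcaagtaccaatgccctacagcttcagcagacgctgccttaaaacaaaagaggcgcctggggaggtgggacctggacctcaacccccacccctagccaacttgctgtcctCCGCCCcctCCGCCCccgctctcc
Spock2: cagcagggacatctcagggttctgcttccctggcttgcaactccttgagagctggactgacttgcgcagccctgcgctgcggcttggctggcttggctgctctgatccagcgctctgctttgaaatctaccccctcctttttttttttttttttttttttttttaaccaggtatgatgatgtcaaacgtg
Hspg2 held 5 GC boxes, Lamb1 held 2 and Spock2 held 0, and a GC box was present in 22.8% of all 32851 promoters in the same window. The share of G and C was 70.5% for Hspg2, 64.2% for Lamb1 and 49.5% for Spock2, against a median of 51.6% over all promoters. The CCAAT box (CCAAT, or ATTGG) occurred once in Lamb1, and 26.7% of promoters held it. None of the 3 stretches held a TATA box (TATAAA, or TTTATA; 8.73% of promoters), a TEAD motif (GGAATG, or CATTCC; 10.2%) or an AP-1 motif (TGAGTCA, or TGACTCA; 3.34%). The stretches end 61 bases before the RefSeq start, short of the usual place of a TATA box. They therefore cannot show whether these genes have one. The matches describe the letters of 1 window and are not binding sites shown by data.

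Levels of different genes were compared as normalised reads per kb of the gene length in the authors' table. That length was 11294 bases for Sulf1 and 9917 for Lamb1, whose longest coding transcripts have 5598 and 5784 bases. It was nearer to the transcript for Spock2 (5533 against 5238) and Hspg2 (14307 against 14187). The order of the genes therefore depends on the length used, and levels by transcript length were not computed. In the knockout the order by mean level per kb was Spock2 (2.37 ± 0.830), Sulf1 (1.22 ± 0.462), Lamb1 (0.508 ± 0.355), Hspg2 (0.420 ± 0.112) and Csgalnact1, which had no reads (SD, n = 3 each). Spock2 was above Sulf1 in all 3 knockout samples, by 1.16 ± 0.966 normalised reads per kb (SD of the difference within samples, n = 3). Sulf1 was above Lamb1 in 2 of 3, by 0.708 ± 0.803, which is within its spread. Lamb1 was above Hspg2 in 1 of 3, a difference of 0.0881 ± 0.425 that lies within its spread. In controls the order was Sulf1 (9.18 ± 10.05), Spock2 (6.53 ± 3.24), Hspg2 (6.24 ± 7.07), Lamb1 (4.92 ± 3.19) and Csgalnact1 (2.05 ± 1.57) normalised reads per kb (SD, n = 3 each). The first 4 places are not separated beyond the spread, as the differences between neighbours there were 2.65 ± 11.2, 0.292 ± 3.90 and 1.32 ± 4.57 per kb. Lamb1 was above Csgalnact1 in all 3 controls, by 2.87 ± 2.39 per kb.

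The make-up of the 5-gene signal, by the gene lengths of the authors' table, differed from control to control. Those lengths exceed the longest coding transcript most for Sulf1 and Lamb1, so each share and each leading gene given here depends on them. Summed per kb, the 5 genes stood at 3.57, 5.25 and 4.73 normalised reads per kb in knockouts 1, 2 and 3, and at 11.1, 36.3 and 39.3 in controls 1, 2 and 3. Controls 2 and 3 were thus alike in their sum and control 1 lay between them and the knockout. Spock2 made up 33.5% of this sum in control 1, where it was the highest gene per kb. Sulf1 was the highest in control 2, with 57.2% of the sum, but had 8.38% of it in control 3. Hspg2 led in control 3, with 36.4% of the sum against 9.15% in control 2. Spock2 led in all 3 knockout samples, with 39.8%, 56.3% and 58.0% of the sum. Lamb1 held the narrowest range of shares in the controls, from 13.3% to 19.8%.

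**Figure D2:**
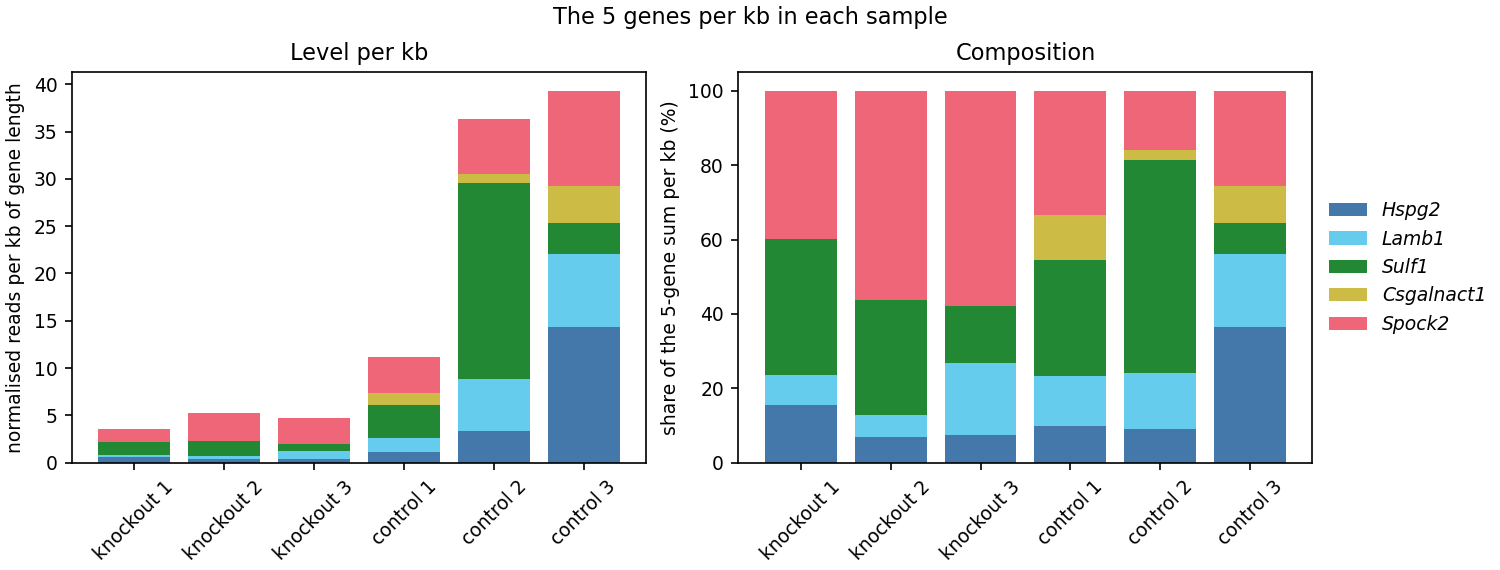
Stacked bars of the 5 genes in each of the 6 samples, as normalised reads per kb of gene length (left) and as the share of their sum in percent (right). The length is that in the authors' table, and the parts depend on it. The sum is between 3.57 and 5.25 in the knockout samples and between 11.1 and 39.3 in the controls, with Sulf1 the largest part in control 2 and Hspg2 in control 3.

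Within the groups Sulf1 had lower correlations with the other 4 genes than these had with each other. The measure was Pearson's r over the 6 samples between deviations of log2(value + 1) from the group means, which leaves out the difference between the groups. It is a description, since the 6 deviations share libraries and counts and have 4 degrees of freedom. Csgalnact1 had no knockout reads, so its r with another gene takes its covariance from the 3 controls alone. Among Hspg2, Lamb1 and Spock2, r was 0.72 (Hspg2 with Lamb1), 0.68 (Hspg2 with Spock2) and 0.77 (Lamb1 with Spock2). Csgalnact1 had r of 0.78 with Hspg2, 0.62 with Spock2 and 0.41 with Lamb1. Sulf1 had r of -0.11 with Spock2, -0.09 with Hspg2, 0.05 with Lamb1 and -0.66 with Csgalnact1.

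The listed genes most like each member by this r were taken from those with a mean of at least 10 normalised reads. These are the first 3 of 235 genes, or of 236 for Csgalnact1. The highest r of so many over 6 samples can be high without a link between the genes. For Hspg2 these were Fbn1 (r = 0.99), the gene of a fibrillin, the main protein of microfibrils, Fhl2 (0.98) and Dmbt1 (0.98). Each of the 3 was highest in control 3, with 190.8, 78.3 and 65.6 normalised reads, and had at most 2.02 in any knockout sample. For Lamb1 they were Sfrp1 (r = 0.97), a secreted inhibitor of Wnt signalling, Id3 (0.96) and Angptl2 (0.94). For Sulf1 they were Tenm4 (r = 1.00), the prostaglandin D synthase gene Ptgds (0.99) and Calml4 (0.98), all highest in control 2, where Ptgds reached 175.5 normalised reads, above the 36.3 of control 1 and the 31.3 of control 3. For Csgalnact1 they were Rcn3 (r = 0.97), Gas1 (0.95) and Myl9 (0.93), and for Spock2 they were Dbn1 (0.98), Syt6 (0.94) and the glypican gene Gpc4 (0.92). Syt6 had higher values in the knockout, with 46.2, 103 and 78.9 normalised reads against 27.5, 29.1 and 55.8 in controls 1, 2 and 3, so its likeness to Spock2 holds only within the groups.

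The differences were also computed as mean log2(value + 1) in the knockout minus that in controls, with standard errors from a limma fit over all 466 genes. They were -3.00 (SE 0.93) for Hspg2, -2.90 (SE 0.84) for Lamb1, -2.34 (SE 0.85) for Sulf1, -3.30 (SE 0.76) for Csgalnact1 and -1.34 (SE 0.71) for Spock2. For Csgalnact1, with no knockout reads, the fitted value depends on the added 1 and is no bound. The median over the 5 genes was -2.90, beside -1.99 over all 466 listed genes. On log2 ratios of the group means, with genes that had no reads in a whole group set to their bound, the medians were -2.92 and -2.26. On the deposited scale all 5 genes were lower with no overlap between the groups, as were 45.3% of the 466 listed genes, while Spock2 turned to 0.16 after the samples were rescaled to the listed genes. At an adjusted p of 0.05 limma called 0 of the 5 genes and 0% of all 466, with 4 of the 5 and 52.6% of the 466 at an unadjusted p under 0.05. By the same adjusted p, edgeR with the reads recovered from the table called 0 of the 5 and 0% of the 466, with 4 of the 5 and 56.0% of the 466 at an unadjusted p under 0.05. DESeq2 called 4 of the 5 at an adjusted p of 0.05, leaving out Spock2, against 10.3% of the 466. Without control 1 limma called 4 of the 5, again leaving out Spock2, against 42.1% of the 466. Without control 3 it called Csgalnact1 and none of the other 4, against 7.73% of the 466. Each adjustment ran over genes the authors had already selected at an unadjusted p under 0.05, so these calls are no test. With controls 2 and 3 both left out, which leaves 1 control sample and no spread among controls, the differences were -1.28 for Hspg2, -1.53 for Lamb1, -1.52 for Sulf1, -2.98 for Csgalnact1 and -0.67 for Spock2.

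**Figure D3:**
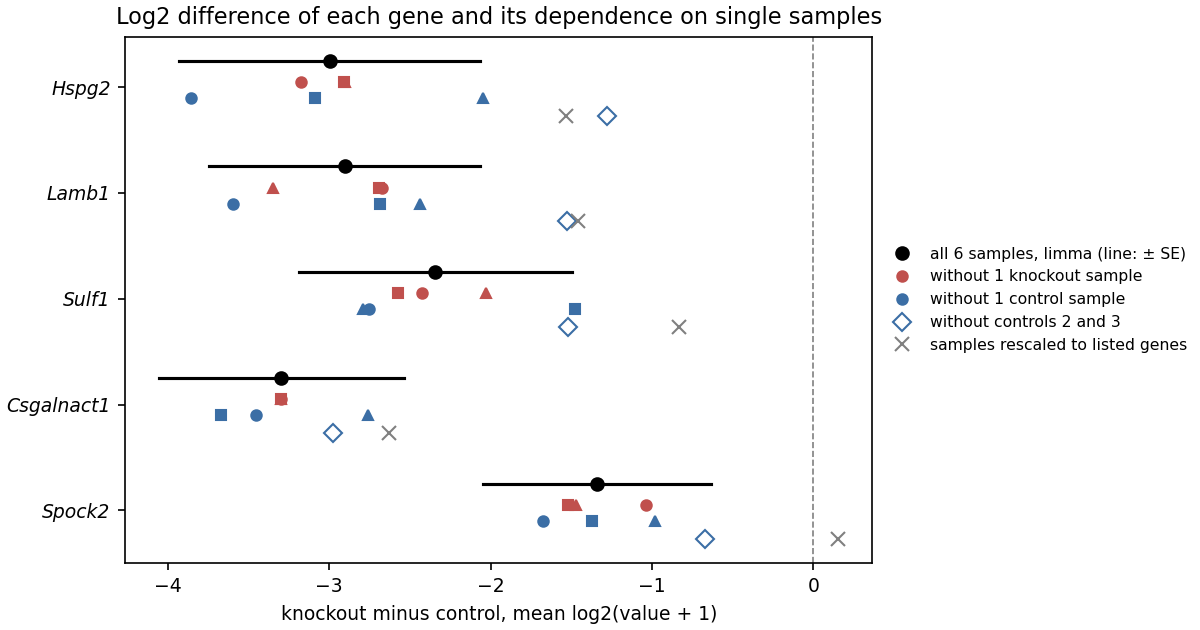
Knockout minus control difference of mean log2(value + 1) for each gene: black points with lines are the values over all 6 samples with their SE, coloured symbols the values without 1 sample (circle, square and triangle for replicates 1, 2 and 3), open diamonds those without controls 2 and 3, and crosses those after rescaling the samples to the listed genes. All values lie below 0 except that of Spock2 after the rescaling, at 0.16.

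Further genes of these pathways were counted in 10 lists of 203 genes in all, and 198 of these are other than the 5. Of the 198 genes, 20 are in the authors' table, which holds 2.44% of the 19107 genes in the authors' adjustment. That share is the background for each count of listed genes below, marker lists included, and no enrichment was tested. All 20 had lower values in the knockout, where 88.0% of the 466 listed genes are lower. Genes absent from the list were not analysed here, and a smaller difference in them would not show. All 20 kept that direction when the samples were rescaled to the listed genes, and 17 of 20 kept it without controls 2 and 3, the exceptions being Adamts9, Lama4 and Sdc2. This is no test, since the 20 genes are listed for differing between these same samples. The median log2 difference of the 20 genes was -2.21, near the -1.99 of all listed genes.

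Of 38 basement membrane genes, 6 were listed (background share 2.44%). Beside Hspg2 and Lamb1 these were Col4a5, a type IV collagen chain gene, Pxdn, whose product crosslinks type IV collagen, Frem1 and the laminin alpha chain gene Lama4. Col4a5 averaged 2.98 ± 2.58 normalised reads over the knockout samples and 17.9 ± 12.2 over the controls, and Pxdn at 1.70 ± 2.13 against 17.3 ± 9.10 (SD, n = 3 each). The groups overlapped for Col4a5, Frem1 and Lama4. Of 13 receptors of laminin and perlecan 1 was listed, the integrin gene Itga3, with 7.85, 44.6 and 10.8 normalised reads in controls 1, 2 and 3 and at most 5.11 in the knockout.

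Of 36 proteoglycan core proteins, 8 were listed (background share 2.44%), Hspg2 and Spock2 among them. Prelp, a small leucine-rich proteoglycan that binds perlecan, fell by the authors' deposited table (adjusted p = 0.00501), and so did Tgfbr3, the membrane proteoglycan betaglycan (adjusted p = 0.0170). Prelp had 4.92, 2.04 and 3.04 normalised reads in knockouts 1, 2 and 3, and 11.8, 56.3 and 87.1 in controls 1, 2 and 3. Tgfbr3 had 4.92, 1.02 and 2.02 in the knockouts and 8.83, 73.7 and 49.9 in the controls, again lowest in control 1. The others were the glypican gene Gpc4, the syndecan gene Sdc2, and Ogn and Fmod. Control 3 was the highest sample for 7 of the 8 core protein genes and control 2 for Tgfbr3.

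Enzymes of chain synthesis gave 3 listed genes. Of 25 genes for heparan sulfate synthesis and editing, Sulf1 and the sulfotransferase gene Hs6st2 were listed, and Hs6st2 averaged 2.30 ± 3.15 normalised reads over the knockout samples and 14.0 ± 7.75 over the controls (SD, n = 3 each). Of 16 genes for chondroitin and dermatan sulfate synthesis, Csgalnact1 was listed alone. None of 7 genes for the linker between chain and core protein, 8 for sulfate supply or 19 for glycosaminoglycan breakdown was listed. At a share of 2.44%, lists of these sizes can hold no listed gene, so these counts show nothing about them.

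Proteases, inhibitors and ligands of this matrix gave 4 listed genes in each of 2 lists of 22 (background share 2.44%). Timp3, an inhibitor of metalloproteinases that is held in matrix, had 9.83, 9.19 and 5.06 normalised reads in knockouts 1, 2 and 3, and 10.8, 37.8 and 90.02 in controls 1, 2 and 3. Adamts5, a protease that cleaves chondroitin sulfate proteoglycans, had 84.1 in control 3 and at most 5.82 in every other sample. Timp1 likewise had 40.1 in control 3 and at most 2.94 elsewhere, and Adamts9 was the fourth. The ligands known to bind heparan sulfate were Slit2, Bmp7, Fgf10 and Bmp4, all with means of at most 15.3 normalised reads in controls.

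**Figure D4:**
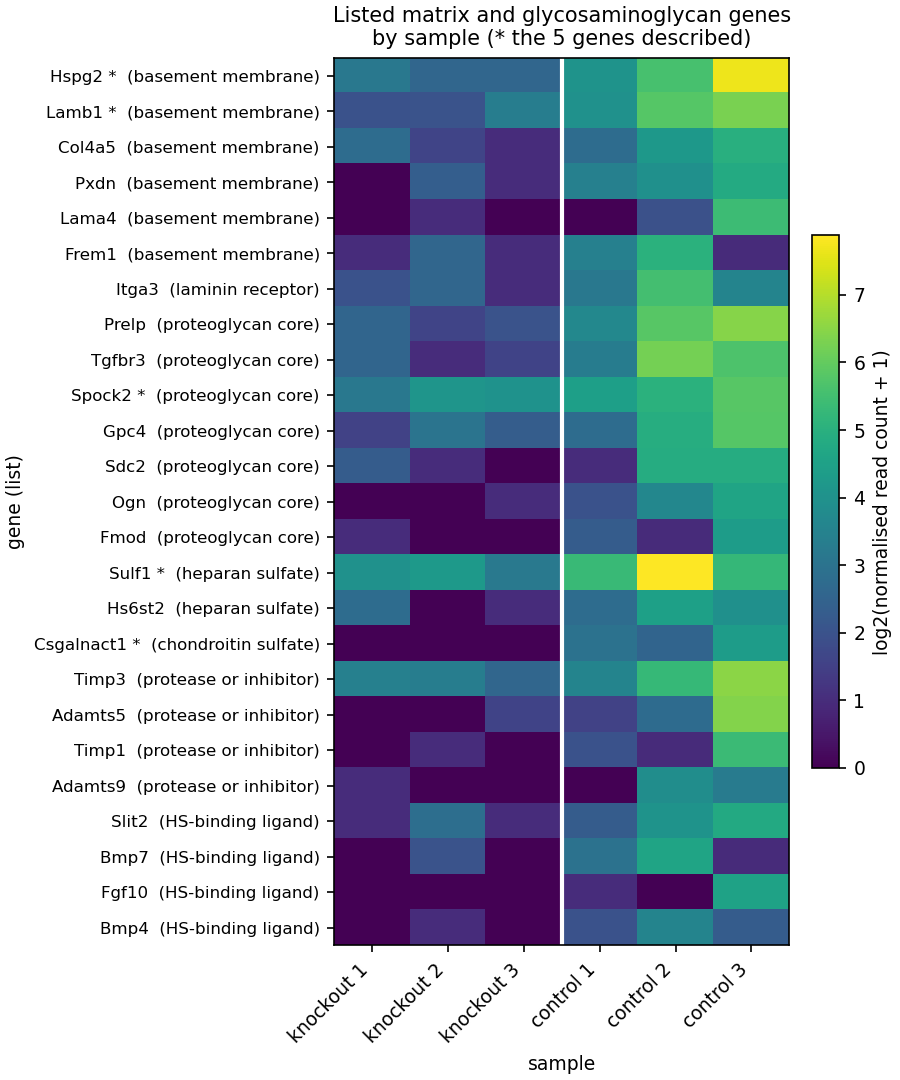
Heat map of log2(normalised read count + 1) for the 25 listed genes of the matrix and glycosaminoglycan lists (rows, with the list of each) in the 3 knockout and 3 control samples (columns); asterisks mark the 5 genes described. In each row the brightest cell is control 2 or control 3, control 2 for Sulf1 and control 3 for the other 4 marked genes.

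Markers of other cell types also differed between the samples, though not all of them in the same samples as these genes. Their part in the result was not tested. Of 15 neuron markers 7 were listed, with a summed level of 12.1 to 68.4 normalised reads in the knockout and 75.5 to 796 in controls, highest in control 3 as Hspg2 was. Thy1, a surface glycoprotein of projection neurons, gave 542 of the 796 in control 3. Of the 7 markers Syt1, Slc17a7 and Grin1 had no reads in knockout 3, while Thy1 and Snap25 had 1.01 each and Syn1 had 8.09 there. Of 9 choroid plexus markers 6 were listed, at 583 to 2014 in the knockout and 359 to 19112 in controls, highest in control 2 as Sulf1 was and lowest of all samples in control 3. Transthyretin (Ttr) made up most of that sum, with 18571 normalised reads in control 2. Mural cell markers (2 of 12: Acta2 and Myl9) summed to 5.11 to 26.3 in the knockout and 24.2 to 255 in controls. Myl9 had no reads in knockouts 1 and 3 and 1.02 in knockout 2. It had 0.981, 1.94 and 66.5 in controls 1, 2 and 3. Of 14 fibroblast and leptomeningeal markers Igfbp2 was listed, at 9.11 to 48.2 in the knockout and 29.4 to 364 in controls, highest in control 2. Of 11 astrocyte markers Gja1 and Sox9 were listed, with sums of 3.04 to 16.3 against 9.81 to 59.2, and Sox9 had no reads in knockout 3. Foxj1 was the 1 listed gene of 7 ependymal markers, at 7.08 to 19.7 in the knockout and 2.94 to 83.4 in controls. Of 9 border macrophage markers Cd209a and Clec4n were listed, summing to 5.11 to 11.1 in the knockout and 11.8 to 14.7 in controls, and Clec4n, the 1 marker with higher values in the knockout, had no reads in controls 1 and 2. None of 13 endothelial, 10 oligodendrocyte or 8 oligodendrocyte precursor markers was listed, and their levels were not analysed here. The sum of the 5 genes was 33.4 to 42.9 normalised reads in the knockout and 97.1 to 394 in controls.

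**Figure D5:**
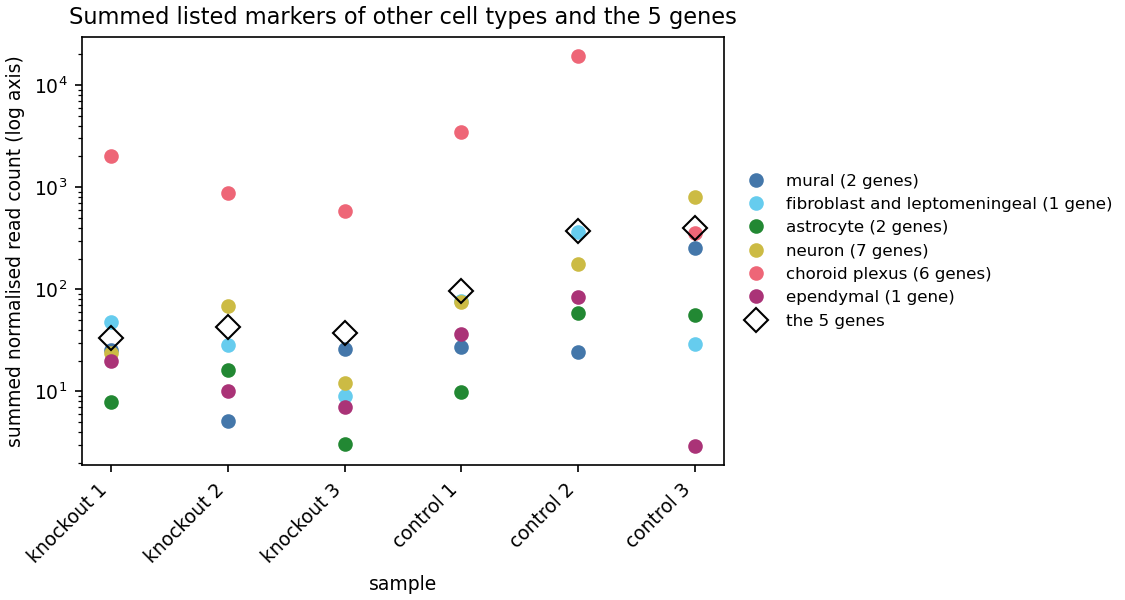
Summed normalised read counts (log axis) of the listed markers of 6 other cell types and of the 5 genes (open diamonds) in each of the 6 samples. The neuron sum is highest in control 3 (796) and the choroid plexus sum in control 2 (19112), while the sum of the 5 genes is high in both, at 373 and 394.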

How the data were processed

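Poly(A) RNA of 6 samples was sequenced as paired reads, per the labels' protocols. The submitters' processing notes name RSEM 1.2.30, HISAT2, cutadapt 1.11, R 3.6.1, DESeq2 and the build GRCm38, without roles. The authors deposited normalised read counts (signal values, none below 0), a log2 fold change, a p-value and an adjusted p-value for 466 selected genes. All deposited values were whole multiples of the value of 1 read (100%, tolerance 1e-06), which gave the reads and size factors. Depth per library is unknown.

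The groups, taken from the sample titles, were compared with limma 3.58.1 (R 4.3.3, mean-variance trend, log2(value + 1), no filter, Benjamini-Hochberg over 466 genes, threshold 0.05). edgeR 4.0.16 and DESeq2 1.42.0 on the recovered reads were alternatives, and all 3 were tested on simulated data. The p-values reflect only the spread among these libraries, which may be technical. Other pseudocounts, a filter, rescaling, a replicate block and leaving out samples were tried. The members, gene lists and tests were chosen with earlier results of these data known, so no list is independent evidence. Named genes were the 5 members, Piezo1 and Cx3cr1, up to 4 genes per pathway list and 3 per marker list by mean level, and the 3 genes most like each member. Frem1, Lama4, Sdc2, Ogn, Fmod, Syt1, Slc17a7 and Grin1 were named beyond this rule, after their values were seen. Positions matched GENCODE M21.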

Additional observations from a re-analysis of the deposited data

How the results depend on the processing

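Each of the 5 genes kept a value below 0 under every alternative run, except that Spock2 turned to 0.16 when libraries were scaled by the median ratio over listed genes, which raised the median of all listed genes by 1.03. As 88.0% of the listed genes were lower in the knockout, this rescaling takes out part of the group difference. Cx3cr1 turned to 0.52 under it. Of 74 values under alternatives, 60 stayed on the same side of an adjusted p of 0.05, the changed sign of Spock2 included, and 14 passed it. With a pseudocount of 0.5, Hspg2 (-3.09), Lamb1 (-3.03) and Csgalnact1 (-4.21) passed. With DESeq2, Hspg2 (-3.89), Lamb1 (-3.28), Sulf1 (-2.92) and Csgalnact1 (-5.82) passed. Csgalnact1 also passed under this rescaling (-2.63) and with controls 2 and 3 left out together (-2.98), an alternative chosen after seeing the data. That alternative has 1 control, so its spread comes from the knockouts alone, where Csgalnact1 has none, and its calls say nothing about stability. Leaving out 1 sample gave -3.86 to -2.05 for Hspg2, -3.59 to -2.43 for Lamb1, -2.79 to -1.48 for Sulf1, -3.67 to -2.76 for Csgalnact1 and -1.68 to -0.98 for Spock2. The number of all listed genes called was 0 with all samples, 0 to 196 without 1 sample, 120 with a pseudocount of 0.5, 1 with a mean of at least 10, 56 after the rescaling, 48 with DESeq2 and 54 without controls 2 and 3. Of the 5 genes, 0 to 4 were called without 1 sample, 3 with a pseudocount of 0.5, 1 after the rescaling, 4 with DESeq2 and 1 without controls 2 and 3. All these counts come from genes the authors had already selected at an unadjusted p under 0.05, so passing is no test. The cause of these changes was not tested. Csgalnact1 has a mean under 10 and no value under that filter. With the replicate block 4 listed genes were called and 0 of the 5. Same-numbered samples had correlations of -0.04, -0.04 and 0.07 between their deviations. Those between samples of unlike numbers ranged from -0.19 to 0.27. Such correlations cannot show whether same-numbered samples shared more than a number. Counts of 0 to 20 reads limit Csgalnact1 and the knockout values of all 5 genes.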
